A study of Mus musculus with 29 samples.

Results

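The members described here are T cell receptor beta (TRB) clonotypes that were counted in both the brain and the ovary metastases of the same numbered set of samples. A clonotype was a row of the deposited repertoire table, defined by its V segment, its J segment and its CDR3 amino acid sequence. A member had a productive CDR3 and a count above 0 in each organ of at least 1 of the numbers 1, 3, 10, 12 and 13. The rule found 1138 of the 27384 productive TRB clonotypes of the table, and of the 23629 clonotypes found in any of the 20 samples of these numbers. Because 21 of them met the rule in 2 or more numbers, they made 1163 pairs of a clonotype and a number, and counts per number below refer to those pairs. The counts themselves chose the members, so shares of counts and ranks are given as a description with no test.

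The samples came from an experimental metastasis model of Braf-mutated melanoma in mice, in which receptor transcripts were sequenced from RNA of brain and ovary lesions. Each of the 5 numbers stood for 1 treatment and had 2 samples in each organ, called parts 1 and 2 here. Number 3, whose sample titles name vehicle, is called untreated here, and number 10 had received an anti-PD-L1 lead-in alone, both at day 0. Number 13 had received trametinib, an inhibitor of the kinase MEK, number 1 trametinib together with anti-PD-L1, an antibody to the ligand of the T cell inhibitory receptor PD-1, and number 12 the same combination after an anti-PD-L1 lead-in, all at day 3. With 1 number per treatment, treatment and number cannot be told apart. The labels did not say whether a number was an animal or what set the parts of a number apart. They also named no T cell sort, and since only receptor transcripts were measured, fewer T cells in a lesion and less receptor RNA per cell cannot be told apart. The samples held 266 to 6238 TRB counts in the brain and 16179 to 51674 in the ovary. The brain of number 12 had 12311 counts over both parts, against 622 in number 3, 938 in number 10, 1324 in number 13 and 4568 in number 1.

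The beta chain of the T cell receptor is assembled in the thymus from V, D and J segments. The V segment encodes loops that mostly touch the MHC molecule, while CDR3 spans the junction and mostly touches the presented peptide. The daughters of a dividing T cell keep its rearrangement, so a beta clonotype with many counts usually reflects clonal expansion, and a clonotype met in separate tissues can mark cells of a clone that reached each of them. The same amino acid sequence can also arise more than once, because different rearrangements can encode it.

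The CDR3 sequences below are from the 3 members of each number whose lower share of the 2 organs was highest, and they carry the description of sharing that follows. They run from the conserved cysteine to the conserved phenylalanine, and CDR3 loops of 15 or more residues are named by segment and length only.
Number 1, TRBV16 and TRBJ1-1: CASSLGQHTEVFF
Number 1, TRBV13-1 and TRBJ1-6: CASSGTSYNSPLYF
Number 1, TRBV3 and TRBJ2-7: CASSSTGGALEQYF
Number 3, TRBV16 and TRBJ2-5: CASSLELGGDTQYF
Number 10, TRBV30 and TRBJ1-1: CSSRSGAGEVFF
Number 12, TRBV23 and TRBJ2-7: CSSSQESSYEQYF
Number 12, TRBV20 and TRBJ2-7: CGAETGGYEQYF
Number 13, TRBV3 and TRBJ2-7: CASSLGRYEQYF
Number 13, TRBV14 and TRBJ2-4: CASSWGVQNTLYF

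Shared clonotypes were few among those of the ovary and many among those of the brain, and they held a large part of the counts of both organs. The number of shared clonotypes was 350 in number 1, 99 in number 3, 127 in number 10, 431 in number 12 and 156 in number 13, a mean of 232.6 ± 148.3 (SD, n = 5 numbers). The mean was 125.2 with part 1 left out in both organs, 107.0 with part 2 left out, and 152.9 with the ovary drawn down to the brain total of its number. They made up 23.9%, 37.5%, 39.9%, 21.6% and 33.0% of the brain clonotypes of these numbers in turn, and 8.19%, 2.29%, 2.19%, 14.7% and 4.32% of the ovary clonotypes. Their share of the TRB counts was far above their share of clonotypes in every ovary, while in the brain of number 10 the shares were close. In the brain they held 48.1%, 46.5%, 40.9%, 63.1% and 47.4% of the counts, a mean of 49.2% ± 8.26 (SD, n = 5). In the ovary they held 55.3%, 27.2%, 31.2%, 68.0% and 35.8%, a mean of 43.5% ± 17.4 (SD, n = 5). Number 12, treated with the lead-in and the combination, held the highest share in both organs. It also had the most brain counts, and number 1, which was next in ovary share, had the second most.

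Each part is a sample of its own and gave its own share. In the ovary, parts 1 and 2 gave 56.5% and 53.9% in number 1, 26.3% and 28.4% in number 3, 31.7% and 30.4% in number 10, 64.1% and 72.6% in number 12, and 36.1% and 35.6% in number 13. In the brain they gave 51.6% and 46.6% in number 1, 42.7% and 50.0% in number 3, 28.6% and 45.8% in number 10, 68.0% and 58.3% in number 12, and 49.2% and 45.5% in number 13. The exact 95% binomial interval was widest for brain part 1 of number 3, from 37.1% to 48.5%. The intervals of the 2 parts did not overlap in the brain of numbers 1, 10 and 12, nor in the ovary of numbers 1, 3, 10 and 12. They take each count as an independent draw, and whether counts are of reads or molecules is not known. The intervals can thus be too narrow, and no difference beyond counting error is read from them. The gap was widest in the brain of number 10, with intervals of 23.2% to 34.4% and 42.0% to 49.7%. These intervals cover counting error only.

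**Figure D1:**
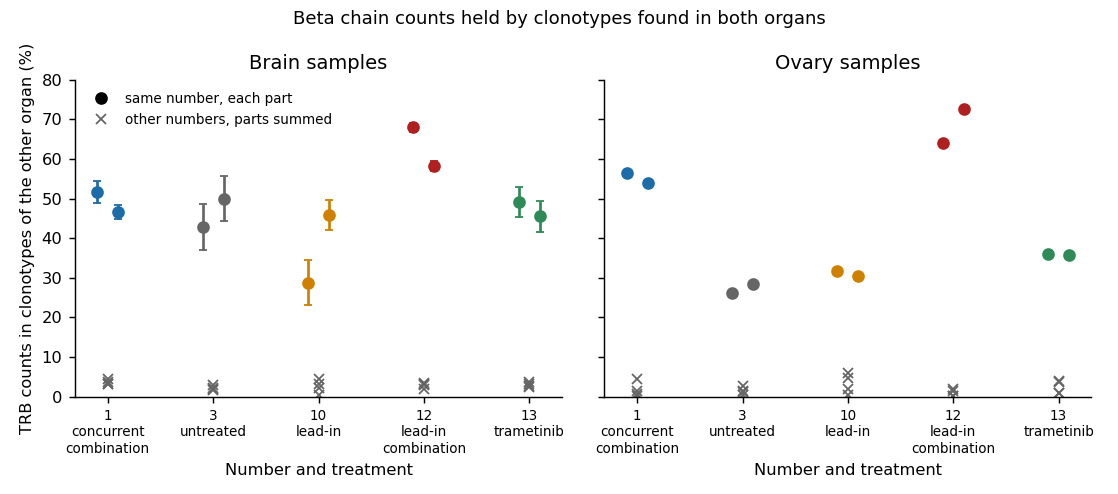
Percent of the TRB counts of each sample that belonged to clonotypes also found in the other organ, by number (horizontal axis) and organ (panels); filled points are the parts of a number with their exact 95% binomial intervals, where they are wider than the point, and crosses pair an organ with the other organ of the 4 other numbers. All filled points lie between 26.3% and 72.6%, and the crosses reach at most 6.04%.

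Pairing the brain of one of these numbers with the ovary of another gave a background for sharing. The 20 such mismatched pairs had 1 to 59 clonotypes in common (median 14), against 99 to 431 for the matched pairs. These held 0.426% to 4.48% of the brain counts and 0.152% to 6.04% of the ovary counts. The matched and mismatched ranges did not overlap for either organ. The 5 numbers sampled only in the brain shared 1 to 53 clonotypes with the 5 ovaries (median 17 over 25 pairs), with 0.496% to 9.53% of their brain counts. Alpha chain clonotypes chosen by the same rule numbered 381, 100, 100, 478 and 181 in numbers 1, 3, 10, 12 and 13. They held 58.2%, 60.2%, 46.7%, 68.9% and 56.1% of the alpha counts of the brain, and number 12 was again highest in both organs, with 78.0% of the alpha counts of the ovary.

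Because the totals differed between organs and numbers, the samples were also set to one depth. At 622 brain and 35629 ovary counts, the expected number of shared clonotypes was 150 in number 1, 98.2 in number 3, 102.5 in number 10, 137 in number 12 and 119 in number 13. The numbers thus lay much closer together than at full depth. The expected share of counts at that depth was 47.6%, 46.2%, 38.3%, 62.7% and 47.4% in the brain and 38.4%, 27.2%, 28.4%, 52.4% and 31.1% in the ovary. Number 12 remained highest in share in both organs, while number 1 had the most shared clonotypes.

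Clonotypes with many ovary counts were the ones most often met in the brain. Of the ovary clonotypes with 30 or more counts, 69.9% were found in the brain of number 1, 25.2% in number 3, 18.3% in number 10, 78.0% in number 12 and 37.7% in number 13. At 1 ovary count the share was 1.99%, 0.306%, 0.370%, 6.56% and 1.05%. Among numbers 1, 3, 10, 12 and 13, the brain of another number held at most 7.53% of the ovary clonotypes with 30 or more counts. From the brain side, 51 of 54 clonotypes with 10 to 29 counts in number 1 were found in its ovary, and so were 93 of 134 in number 12. All 10 brain clonotypes with 30 or more counts in number 1 and 45 of 48 in number 12 were found in the ovary.

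**Figure D2:**
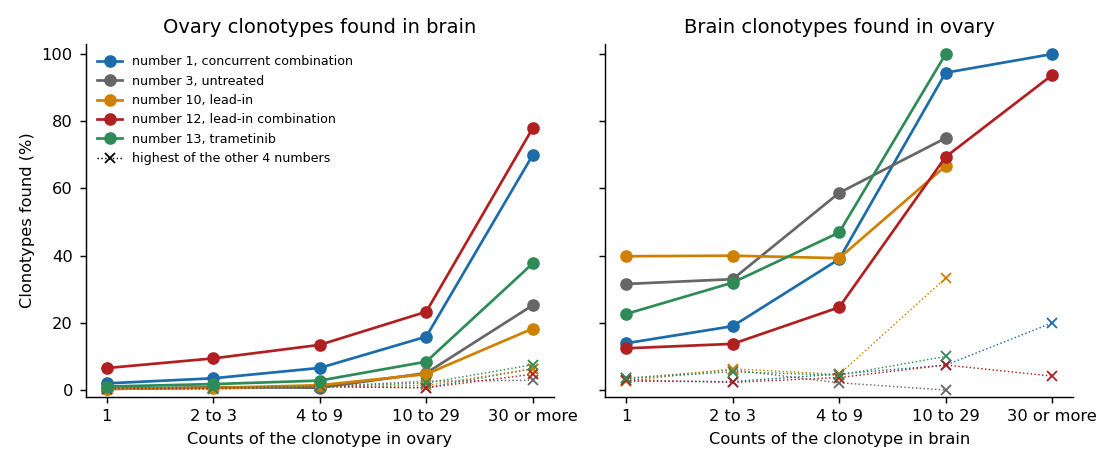
Percent of the clonotypes of one organ that were found in the other organ (vertical axis) by their number of counts in the first organ (horizontal axis), for ovary clonotypes (left) and brain clonotypes (right); circles and full lines are the same number and crosses with dotted lines the highest of the 4 other numbers. Ovary clonotypes with 30 or more counts were found in the brain of the same number in 18.3% to 78.0%; for brain clonotypes with 10 to 29 counts, numbers 3 and 10 rest on 4 and 3 clonotypes.

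The leading clonotypes of both organs were mostly members. All of the 10 highest ranked ovary clonotypes were shared in numbers 1 and 13, and 9, 8 and 6 of 10 in numbers 12, 10 and 3. In the brain, all 10 were shared in numbers 1, 12 and 13, and with ties for the last place 13 of 17 in number 3 and 6 of 12 in number 10. The median ovary count of members was 13, 35, 23, 9 and 19 in numbers 1, 3, 10, 12 and 13, against 3 for clonotypes of the ovary only in each. The median brain count was 3, 2, 3, 5 and 3, against 2 for clonotypes of the brain only. Most members therefore entered the rule on few brain counts.

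Just inside the rule, 86 members of number 1, 36 of number 3, 45 of number 10, 90 of number 12 and 46 of number 13 had a single brain count. A single count in each organ was all that 11, 1, 3, 24 and 7 members had. Of the 1163, 458 were found in 2 of the 4 samples of their number, 469 in 3 and 236 (20.3%) in all 4. The share found in all 4 was 24.9% in number 1 and 25.5% in number 12, but 8.08% in number 3 and 2.36% in number 10, whose brains had the fewest counts.

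Just outside the rule, the largest clonotypes of the ovary only had up to 1128 counts. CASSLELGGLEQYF (TRBV16 with TRBJ2-7) of number 10 had 801 and 327 counts in ovary parts 1 and 2 and none among 938 brain counts, which allows a brain share of up to 0.320%. Its ovary share was 1.39%. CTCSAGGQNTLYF (TRBV1 with TRBJ2-4) of number 12 had 715 counts in ovary part 1, 3.15% of that sample, and none in ovary part 2 or in the brain, where 0 of 12311 counts allows up to 0.0244%. The largest clonotype of the brain only was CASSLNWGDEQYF (TRBV26 with TRBJ2-7) of number 12, with 22 and 34 brain counts and none among 41573 ovary counts, which allows up to 0.00722%. In the other numbers the largest had 9 to 13 brain counts. They were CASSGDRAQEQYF of number 1 with 13 counts, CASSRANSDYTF of number 3 with 10 counts, all in part 1, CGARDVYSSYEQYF of number 13 with 9 counts, all in part 2, and in number 10 a TRBV23 and TRBJ1-1 clonotype of 16 residues with 11 counts.

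The member whose lower share of the 2 organs was the highest of all was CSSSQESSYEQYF of number 12. It had 536 and 451 counts in brain parts 1 and 2 and 1009 and 1212 in ovary parts 1 and 2. These were 8.83% and 7.23% of the brain samples and 4.45% and 6.42% of the ovary samples. Over both parts it held 8.02% of the brain counts (95% interval 7.54% to 8.51%), at rank 1, and 5.34% of the ovary counts (5.13% to 5.56%), at rank 2. It was high in all 4 samples of its number and was found in no other number. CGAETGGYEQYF of the same number had 135 and 186 brain counts and 902 and 375 ovary counts, which put it at rank 4 in the brain and rank 5 in the ovary. A TRBV14 and TRBJ2-3 clonotype of 18 residues followed with 185 and 121 brain counts and 477 and 173 ovary counts.

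In number 1 the leading member, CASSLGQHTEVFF, was uneven between the parts. It had 72 counts in brain part 1 and 14 in brain part 2, 5.24% and 0.438% of those samples, and 857 and 417 in the ovary parts. It was at rank 1 in the brain and rank 2 in the ovary. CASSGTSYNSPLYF had 11 and 30 brain counts and 366 and 172 ovary counts, and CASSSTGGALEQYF had 7 and 35 brain counts and 159 and 226 ovary counts. Both held about 0.9% of the brain counts, at 0.898% and 0.919%.

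The leading members of the untreated number 3 and the lead-in number 10 rested on few brain counts. In number 3, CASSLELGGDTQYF had 1308 and 692 ovary counts, rank 1 with 4.62% of the ovary, but 0 and 5 brain counts, a brain share of 0.804% with an interval of 0.262% to 1.87%. In number 10, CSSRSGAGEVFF had 1617 and 868 ovary counts and 0 and 5 brain counts. The leader of number 10, a TRBV5 and TRBJ2-4 clonotype of 16 residues, had 5 and 10 brain counts, rank 1 in that brain, and 1166 and 1159 ovary counts. In number 13, treated with trametinib, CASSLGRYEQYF had 11 and 7 brain counts and 263 and 255 ovary counts. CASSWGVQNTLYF had 0 and 18 brain counts and 241 and 130 ovary counts, so its brain presence came from a single part. The first of number 13 in both organs was a TRBV5 and TRBJ1-4 clonotype of 15 residues, with 19 and 9 brain counts and 362 and 900 ovary counts.

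Brain and ovary shares of members were loosely related. Across members, the Spearman correlation of the brain and ovary shares was 0.433 in number 1, 0.282 in number 3, -0.005 in number 10, 0.454 in number 12 and 0.430 in number 13, over the 99 to 431 members given above. These are correlations across clonotypes of the same samples, in which the low counts tie, and clonotypes are not replicates. Of the 172 members with at least 10 counts in each organ, 99 were of number 12 and 58 of number 1. Their log2 ratio of brain to ovary share ran from -5.24 to 4.89, and 66 of them (38.4%) lay within 2-fold of an even ratio. The minimum of 10 counts is a larger share of a brain than of an ovary with more counts, so it kept members with a high brain share, and no balance between the organs is read from these ratios. In number 3, whose brain had 622 counts, all 3 members that passed had the higher share in the brain.

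**Figure D3:**
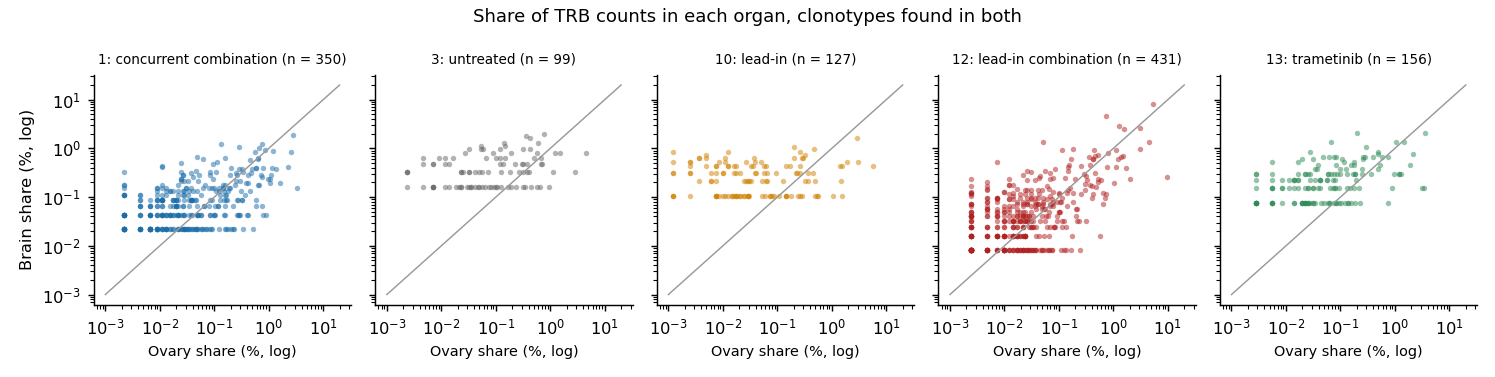
Share of the TRB counts in the brain (vertical, percent, log axis) against the share in the ovary (horizontal, percent, log axis) for each shared clonotype, one panel per number, with the line of equal shares. The horizontal rows at the bottom of each panel are members with 1 or a few brain counts, which lie higher in numbers 3, 10 and 13 because 1 count is a larger share of their 622 to 1324 brain counts.

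Among the 172 members with at least 10 counts in each organ, the 5 most tilted to the ovary were all of number 12, whose brain had the most counts. Members with fewer brain counts also reached such ratios, such as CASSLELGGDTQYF of number 3 and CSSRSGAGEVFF of number 10, whose ovary shares were 5.75 and 5.74 times their brain shares. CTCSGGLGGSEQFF (TRBV1 with TRBJ2-1) was the largest clonotype of its ovary, with 2027 and 2059 counts, 8.93% and 10.9% of the samples, but had only 8 and 24 brain counts and rank 44. Its ovary share of 9.83% was 37.8 times its brain share of 0.260%. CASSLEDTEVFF (TRBV16 with TRBJ1-1), with 184 and 121 ovary and 10 and 4 brain counts, and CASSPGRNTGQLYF (TRBV3 with TRBJ2-2), with 135 and 139 ovary and 4 and 11 brain counts, were 6.45 and 5.41 times higher in the ovary. The other 2 were TRBV2 and TRBV26 clonotypes of 15 residues, with ratios of 8.59 and 7.28.

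Of the same 172, the 5 most tilted to the brain came from numbers 1, 12 and 13. The best counted of them was a TRBV13-2 and TRBJ2-3 clonotype of 15 residues in number 12, with 57 and 112 brain counts but 21 and 0 ovary counts, a brain share 27.2 times the ovary share. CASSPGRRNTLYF (TRBV3 with TRBJ1-3) of number 13 had 11 and 0 brain counts and 3 and 7 ovary counts, a ratio of 29.6. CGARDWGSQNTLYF (TRBV20 with TRBJ2-4) of number 13 had 6 and 12 brain counts and 7 and 17 ovary counts, a ratio of 20.2. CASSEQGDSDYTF and a clonotype of 12 residues of number 1, both of TRBV13-1 with TRBJ1-2, had ratios of 21.0 and 13.7, from 23 and 15 brain counts against 11 ovary counts each.

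Presence in part 1 was also set beside presence in part 2. Members chosen on part 1 alone were looked up in part 2 of the brain, beside clonotypes of ovary part 1 not found in brain part 1, weighted to the same classes of ovary counts. They were found in 60.6%, 21.7%, 18.2%, 59.4% and 39.7% in numbers 1, 3, 10, 12 and 13, against 23.2%, 11.6%, 11.4%, 9.65% and 11.1% for the others. The mean difference was 26.5 ± 18.2 percentage points (SD, n = 5 numbers). In ovary part 2, 70.1%, 76.1%, 77.3%, 67.4% and 78.3% were found, against 7.87%, 3.79%, 5.72%, 21.9% and 12.2% of the brain clonotypes of like counts. That difference was 63.5 ± 10.9 points (SD, n = 5). The chosen members had been found in part 1 of the organ looked up and the others, by construction, had not. The values therefore show only how far presence in one part repeated in the other part of the same organ, and nothing about sharing between organs is read from them.

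On average, with each clonotype counted once, members had shorter CDR3 loops than clonotypes of 1 organ only. Their mean length was 13.82 residues, against 14.09 in the ovary only and 14.01 in the brain only. The difference was -0.28 ± 0.12 residues from the ovary only and -0.19 ± 0.14 from the brain only (SD, n = 5), lower in 5 of 5 numbers in each (exact two-sided sign-flip permutation test p = 0.0625). With 5 numbers 0.0625 is the smallest p this test can give, so none of the 8 sign-flip tests run could pass 0.05. All 8 gave 0.0625, which is also the Benjamini-Hochberg adjusted value. Loops of 16 or more residues made up 10.9%, 8.08%, 8.66%, 9.05% and 6.41% of members in numbers 1, 3, 10, 12 and 13, against 18.1%, 15.04%, 14.3%, 14.03% and 16.04% in the ovary only. With the clonotypes of 1 organ weighted to the members' classes of counts in that organ, the difference shrank to -0.14 ± 0.16 and -0.13 ± 0.17 residues. Members were then lower in 4 of 5 numbers (exact sign-flip p = 0.1875 and 0.25). In number 12 they were higher, by 0.085 and 0.165 residues. With clonotypes weighted by their own counts the difference was -0.12 and -0.08 residues (exact sign-flip p = 0.375 each).

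Members were also found more often in samples of another number. The rule did not use those samples, but the readout is not independent of it. Clonotypes that recur between numbers can also recur in both organs of 1 number. Mismatched pairs of the 5 numbers shared 0.314% to 4.02% of the brain clonotypes, against 21.6% to 39.9% for matched pairs. The part of such recurrence in the difference was not tested. Presence in another number held for 14.6%, 17.2%, 16.5%, 16.5% and 21.2% of members in numbers 1, 3, 10, 12 and 13. The values were 4.64%, 5.65%, 5.69%, 4.36% and 6.43% for the ovary only and 5.30%, 4.24%, 6.28%, 5.93% and 5.36% for the brain only. The difference was 11.8 ± 1.81 points from the ovary only and 11.8 ± 2.62 from the brain only (SD, n = 5), higher in 5 of 5 numbers each time (exact sign-flip p = 0.0625). Weighting to the same counts used those of the organ compared, so ovary counts were not matched against the brain only. So weighted, the difference was 6.64 ± 2.81 and 11.6 ± 2.62 points, still higher in 5 of 5. Against the ovary only, single classes of counts did not all share this direction. At 10 to 29 ovary counts members were lower in numbers 3, 10 and 13, for example 6.45% against 8.96% in number 10. There they were higher in numbers 1 and 12, at 7.87% against 7.64% and 11.7% against 3.83%. At 1 ovary count they were lower in numbers 3 and 10, on 4 and 7 members, and higher in numbers 1, 12 and 13.

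Over all counts together, members had more close relatives among the receptors of their own number. A neighbour was another clonotype of that number with the same V, J and CDR3 length and 1 different residue. Neighbours were found for 48.4% of members on average, from 45.5% in number 13 to 52.5% in number 3, against 30.5% of clonotypes of the ovary only and 16.8% of the brain only. The differences were 17.9 ± 4.67 and 31.6 ± 4.59 points (SD, n = 5), higher in 5 of 5 numbers (exact sign-flip p = 0.0625). Weighted to the same counts in the organ compared, they were 9.79 ± 4.63 and 32.8 ± 3.79 points. Against the brain only this matched brain counts alone, and the ovary counts of members were not matched. The direction against the ovary only depended on the count. At 1 ovary count members had neighbours less often than the others in 5 of 5 numbers, for example 32.3% against 49.7% in number 12, and at 2 to 3 counts in 4 of 5. From 4 counts up members were higher in each class of all 5 numbers, as in number 12 with 76.8% against 39.3% at 30 or more counts. The excess over the ovary only was not seen for neighbours of like size. When only neighbours with between 0.1 and 10 times the counts of the clonotype were taken, the difference from the ovary only was -2.70 points, higher in only 1 of 5 numbers (exact sign-flip p = 0.25), and that from the brain only 2.18 points (p = 0.375). The part that unequal counts of neighbours had in the result was not tested.

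**Figure D4:**
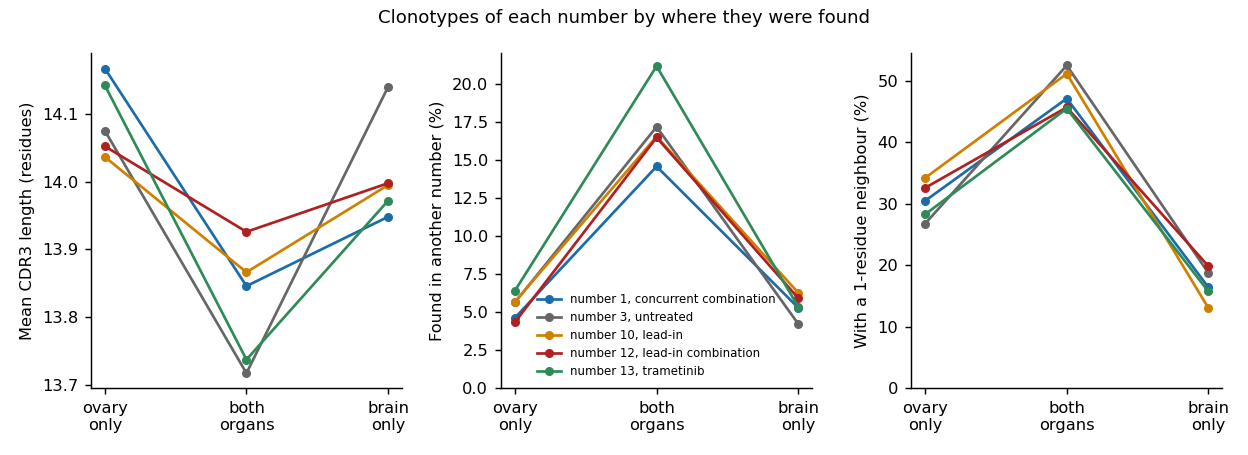
Mean CDR3 length in residues (left, axis not from 0), percent of clonotypes found in another number (middle) and percent with a neighbour of 1 residue difference (right) for clonotypes of the ovary only, both organs and the brain only; each line is 1 number. In every number the clonotypes of both organs had the lowest length and the highest values of the other measures.

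V segment usage differed between members and the clonotypes of the ovary only. By the number of distinct clonotypes per segment, edgeR's quasi-likelihood test with the number as a block called 8 of 21 TRBV segments at an adjusted p under 0.05 (38.1% of those tested), 4 higher and 4 lower among members. TRBV13-3 gave the largest difference: it was used by 2.86%, 1.01%, 1.57%, 1.86% and 0.641% of members in numbers 1, 3, 10, 12 and 13, and by 4.26%, 3.62%, 3.15%, 4.996% and 5.88% of clonotypes of the ovary only. The groups did not overlap, and the log2 ratio was -1.27 ± 0.27 (SE, edgeR adjusted p = 0.00249). TRBV19 went the other way, with 11.7%, 12.1%, 15.7%, 10.9% and 14.7% of members against 8.72%, 7.21%, 7.82%, 8.23% and 5.27%. Its log2 ratio was 0.67 ± 0.15 (SE, edgeR adjusted p = 0.00249), higher in 5 of 5 numbers and also without overlap.

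The other segments called higher were TRBV3, TRBV5 and TRBV20, each in 5 of 5 numbers. TRBV3 was used by 12.7% ± 2.36 of members and 8.57% ± 1.19 of the others (SD, n = 5; edgeR adjusted p = 0.00360). TRBV5 was used by 5.49% ± 1.10 against 4.08% ± 0.959 (edgeR adjusted p = 0.0386), and TRBV20 by 3.15% ± 0.786 against 2.14% ± 0.515 (edgeR adjusted p = 0.0463). Called lower were TRBV13-2 at 8.13% ± 2.46 against 13.1% ± 1.79 (edgeR adjusted p = 0.00249) and TRBV12-1 at 2.93% ± 0.848 against 4.37% ± 0.404 (edgeR adjusted p = 0.0463), each in 5 of 5 numbers. TRBV29 was lower in 4 of 5, at 6.12% ± 2.46 against 9.18% ± 1.39 (edgeR adjusted p = 0.00249), and was used more by members in number 10. TRBV13-2 and TRBV13-3 belong to one family, but TRBV13-1 of the same family was not called and pointed up, at 6.33% of members and 4.81% of the others (edgeR adjusted p = 0.0615).

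The calls depended on the scaling and on the numbers. With TMM factors 6 segments were called, 0 higher and 6 lower, and the median log2 ratio over the 21 segments moved from 0.07 to -0.09. TRBV19, TRBV3, TRBV5 and TRBV20 kept their positive ratio there but missed the threshold (edgeR adjusted p = 0.0670, 0.142, 0.161 and 0.161). Without number 1 edgeR called 3 segments, without number 10 or 12 it called 5, and DESeq2 called 2 on all numbers. Of the 8 segments, TRBV13-3 passed in all 11 alternatives, TRBV19 in 10, TRBV13-2 and TRBV3 in 9 each, TRBV29 in 8, TRBV5 in 4, TRBV12-1 in 3 and TRBV20 in 1. With 1-organ clonotypes of at least 4 counts only, the log2 ratio of TRBV29 moved from -0.68 to -0.27 (edgeR adjusted p = 0.244) and that of TRBV20 from 0.63 to 0.32 (edgeR adjusted p = 0.259).

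Ovary counts differed between the called segments. The mean ovary count of ovary-only clonotypes was 4.42 for TRBV29, 6.10 for TRBV13-3, 6.66 for TRBV19, 10.1 for TRBV5 and 10.6 for TRBV20, against 7.28 over all segments, and the part of these counts in the usage was not tested. The values that follow pool clonotypes over the numbers, so they also depend on which numbers the clonotypes of a segment come from. At 4 to 9 ovary counts, for example, 0.712% were found in the brain of number 3 and 13.5% in that of number 12. No difference between segments was tested here. Of all ovary clonotypes with 4 to 29 counts, summed over the numbers, 6.34% were found in the brain of their number. For the segments called higher the values were 12.2% (TRBV19), 10.01% (TRBV3), 6.06% (TRBV5) and 7.86% (TRBV20). For those called lower they were 2.72% (TRBV13-3), 5.02% (TRBV13-2), 2.82% (TRBV12-1) and 6.37% (TRBV29). TRBV5 thus lay below the value of all, and TRBV29 lay next to it. Among those with 30 or more counts, TRBV19 at 41.9% and TRBV3 at 41.7% lay next to the 39.7% of all. TRBV5 was at 46.4% and TRBV20, although called higher, at 32.4%, or 11 of 34 clonotypes. Of the segments called lower, TRBV13-3 was at 24.1%, or 7 of 29 clonotypes, TRBV13-2 at 36.0% and TRBV29 at 31.4%. TRBV12-1, also called lower, was above the value of all, at 44.4%, or 16 of 36 clonotypes.

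**Figure D5:**
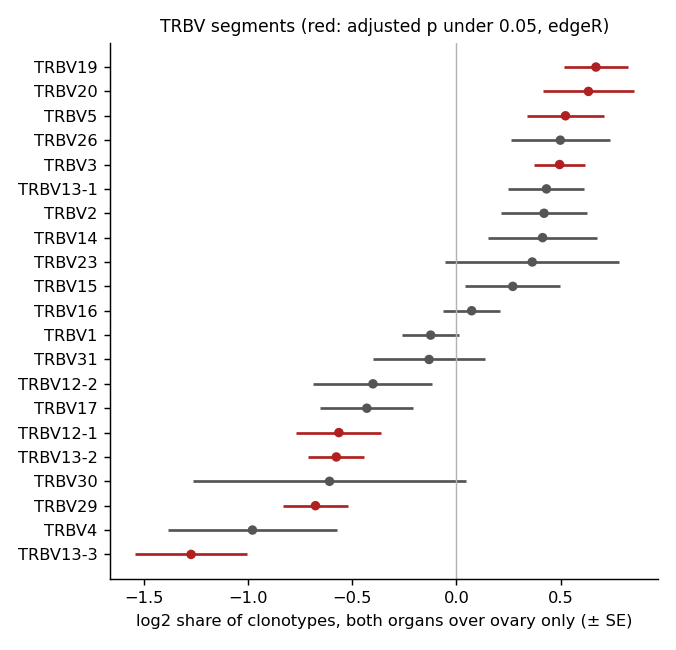
Log2 ratio of the share of clonotypes that used each TRBV segment, members over clonotypes of the ovary only (horizontal axis), with its SE, for the 21 segments tested over 5 numbers. Red marks the 8 segments with an edgeR adjusted p under 0.05, from TRBV13-3 at -1.27 to TRBV19 at 0.67.

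Against the clonotypes of the brain only, edgeR called none of 20 TRBV segments (0% of those tested), with 4 at an unadjusted p under 0.05, and DESeq2 called 0. The lowest edgeR adjusted p was 0.0790, for TRBV29 at 6.12% ± 2.46 of members against 8.76% ± 0.490 and for TRBV3 at 12.7% ± 2.36 against 7.58% ± 1.27 (SD, n = 5). TRBV4 followed at 0.822% ± 0.766 against 2.49% ± 0.280 (edgeR adjusted p = 0.117), lower in 5 of 5 numbers. TRBV19 was used by 11.02% ± 2.34 of the clonotypes of the brain only, between its 7.45% in the ovary only and its 13.05% among members. Whether usage in the brain only and the ovary only differed was not tested.

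J segments gave no call in either comparison. Of 12 TRBJ segments, edgeR called 0 against the ovary only (0%; 2 at an unadjusted p under 0.05) and 0 against the brain only (0%; 1 at an unadjusted p under 0.05), and DESeq2 also called 0 in each. The lowest edgeR adjusted p against the ovary only was 0.138, for TRBJ1-2 at 3.70% ± 1.93 of members against 5.78% ± 0.572 and for TRBJ2-1 at 11.1% ± 1.79 against 13.4% ± 0.520, and TRBJ2-3 followed at 10.2% ± 1.60 against 8.51% ± 0.450 (SD, n = 5). Without number 1, TRBJ1-2 was called (edgeR adjusted p = 0.0290). Against the brain only the lowest were TRBJ1-2, with 5.995% ± 0.504 of the others (edgeR adjusted p = 0.217), TRBJ1-4, at 6.22% ± 0.847 against 8.85% ± 1.72, and TRBJ2-7, at 23.6% ± 3.05 against 21.0% ± 1.67.

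Most members, 970 of 1138, were found in 1 of the 10 numbers of the series, 98 in 2, 43 in 3 and 27 in 4 to 8. Of the 21 in both organs of 2 or more numbers, the 5 with the most counts are described, and those of 14 or fewer residues are shown because the same beta chain was met in both organs under different treatments.
Numbers 10 and 12, TRBV1 and TRBJ1-1: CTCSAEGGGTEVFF
Numbers 1 and 12, TRBV13-1 and TRBJ1-6: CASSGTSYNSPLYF
Numbers 1 and 13, TRBV2 and TRBJ2-7: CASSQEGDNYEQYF
Numbers 12 and 13, TRBV16 and TRBJ1-1: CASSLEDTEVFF

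These members took different levels in their numbers. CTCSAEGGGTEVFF had 963 and 297 ovary counts and 0 and 4 brain counts in number 10, but 31 and 39 ovary counts and 56 and 20 brain counts in number 12. It was tilted to the ovary in the first, 3.64 times, and to the brain in the second, 3.67 times. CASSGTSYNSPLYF, described above for number 1, had 113 and 72 ovary and 81 and 31 brain counts in number 12, where its brain share of 0.910% was 2.04 times its ovary share. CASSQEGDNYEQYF had 1 and 12 brain counts in number 1 and 0 and 4 in number 13, with 64 and 27, and 176 and 250 ovary counts. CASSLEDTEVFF had 5 and 0 brain and 57 and 117 ovary counts in number 13. The remaining one, TRBV1 with TRBJ1-2 and 15 residues, was in both organs of numbers 1, 12 and 13 with 38, 21 and 2 brain counts. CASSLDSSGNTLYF (TRBV3 with TRBJ1-3), chosen after its values were seen, was in both organs of 4 numbers, with 10 brain counts in all, and was found in 8 of the 10 numbers.

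Among the 21, the only pairs of the same V, J and length that differed by 1 residue were 3 TRBV5 and TRBJ2-7 clonotypes, a set noticed after the values were seen and shown for their shared frame. Positions are counted from 1 at the first cysteine.
In both organs of numbers 1, 12 and 13: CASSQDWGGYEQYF
In both organs of numbers 1 and 13, G9S: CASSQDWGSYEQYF
In both organs of numbers 1 and 12, G9A: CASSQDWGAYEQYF
The table held 8 clonotypes of this frame, which differ at position 9 alone, and the other 5 were each found in 1 number and in both organs of none. The 3 members had 27, 6 and 10 brain counts and 340, 215 and 113 ovary counts over the 5 numbers.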

How the data were processed

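The authors deposited a table of counts per clonotype (chain, V, J and CDR3) and sample, from libraries of a QIAGEN QIAseq RNA kit for immune repertoires, per the labels' protocols. No aligner or clonotype caller is given in the sources used here, nor whether counts are of reads or molecules. The build in the submitters' processing notes is GRCh38, a human assembly, so no coordinates are given. Unresolved CDR3 rows were left out (133 TRB rows, 0.0608% of TRB counts). Counts of the 2 parts of a number were summed, and a clonotype was found at 1 count. The members and comparisons were chosen with earlier results of these data known.

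Both classes of clonotype come from the same samples, so number paired them. Means over clonotypes were compared by exact sign-flip permutation over 5 numbers. Segment usage (distinct clonotypes, at least 10 in at least 2 of 10 columns, offset by the class total) was tested with edgeR 4.0.16 (R 4.3.3) with number as a block. Standard errors are the log2 ratio over the root of the F statistic. The fit was also run on simulated counts with a fixed dispersion, which may differ from that of these data, and nothing is read from it here. DESeq2 1.42.0 was an alternative. Python 3.11.15, pandas 2.3.3 and scipy 1.17.1 were used. Sign-flip p-values measure the spread between numbers, which differ in treatment. Those of edgeR and DESeq2 also rest on a count model whose variance is estimated in part across segments. Intervals are exact Clopper-Pearson at 95%, a count of 0 allows 3 counts, and both cover counting error only. Named segments are those past the threshold, otherwise the 3 of lowest p. Named clonotypes are, per number, the 3 members of highest lower share and the largest of 1 organ only, the 5 highest and 5 lowest ratios, and the 5 best counted members of several numbers.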

Additional observations from a re-analysis of the deposited data

How the results depend on the processing

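The paired sign-flip tests kept their direction in 73 of 74 alternatives. The exception was neighbours of like size only against the ovary only, at -2.70 points. Many of these alternatives could not reverse. All 8 tests had a single direction in 5 of 5 numbers, so leaving 1 number out could not change it. Dropping the replicate block left the difference itself unchanged. Little is therefore read from the count of 73. Dropping the replicate block ignores that number pairs the classes, so the p-values of that permutation are not read as results. Its exact p was 0.00794 for length (-0.28 and -0.19 residues against the ovary and brain only). It was the same for presence in other numbers (11.8 and 11.8 points) and neighbours (17.9 and 31.6 points). For detection it was 0.0238 in brain part 2 (26.5 points) and 0.00794 in ovary part 2 (63.5). The groups of both detection comparisons differed by construction. The exact p of these tests ranged from 0.00794 to 0.375 over all alternatives. The mean brain share of 49.2% became 40.6% without clonotypes of other numbers and 35.0% with the ovary drawn down to the brain total. For TRBV against the ovary only, the 8 calls became 2 with DESeq2, 5 without the filter on rare segments, 5 without the replicate block, and 3 to 9 with 1 number left out. Against the brain only, 0 became 1 with TMM factors, 3 without the replicate block, 1 with 1-organ clonotypes of at least 4 counts, and 0 to 1 with 1 number left out. TRBV29 against the brain only turned to a log2 ratio of 0.027 with at least 4 counts. TRBJ against the ovary only gave 0 to 1 calls with 1 number left out. The equal depth and like-size alternatives were chosen after seeing the data. The brain totals of numbers 3, 10 and 13 limit what can be seen there: a single count was 0.161% of the brain of number 3.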
